A study of Mus musculus with 35 samples.

Results

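Claudins are membrane proteins that cross the plasma membrane several times and form the strands of the tight junction, the seal at the apical side of epithelial cells. The set of claudins that a cell makes decides whether the junction blocks ions and water or lets them through, and the sets differ between epithelia. In the early mouse embryo the inner cell mass (ICM) of the blastocyst gives rise to the epiblast, which becomes an epithelium around implantation. The 10 claudins described here (Cldn1, Cldn3, Cldn4, Cldn5, Cldn6, Cldn7, Cldn9, Cldn10, Cldn12 and Cldn23) were taken by their symbols from a table of 54446 mouse genes. A further 23 claudin genes stand in the same table.

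The values came from 27 bulk RNA-seq libraries, 3 for each of 9 groups, and the single-cell and bisulfite sequencing samples of the same study were not analysed here. All groups were labelled wild-type. The 12 in vitro libraries were ESC-derived 3D EpiSCs and embryo-derived 3D EpiSCs (epiblast stem cells grown in 3D Matrigel with FGF2, ActivinA, the Wnt inhibitor XAV and the Bmp inhibitor Noggin), 2D EpiSCs (converted from embryonic stem cells, ESCs, with FGF2 and ActivinA) and EpiLCs (epiblast-like cells, ESCs after 48 h in FGF2 and ActivinA). The 15 in vivo libraries were the ICM at E3.5 and the epiblast at 4 later stages, daily from E4.5 to E7.5, from untreated embryos labelled CD-1, male or female. The methods name CD1 or Pdgfrα reporter mice as their source and state that sex was not determined. Per the methods, the E3.5 and E4.5 libraries each held material of 10 embryos, the ICM taken by laser dissection and the E4.5 epiblast cells picked after immunosurgery with the help of a Pdgfrα reporter, and the later ones pools of 3 to 5 epiblasts with the visceral endoderm and extraembryonic ectoderm removed. Embryo-derived cultures came from E5.5 epiblasts, so that origin and genetic background changed together, and between 3D and 2D cultures medium and dimension changed together. For EpiSCs derived from embryos the methods name LifeAct-GFP and wild-type CD1 embryos, without saying which gave the cultures of these libraries.

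Of the 8 epiblast markers checked (among them Pou5f1, Otx2 and Dnmt3b), 6 had a mean above 1 TPM at E3.5 and all 8 did in each other group. Their sum was not equal between the stages. It was 1238 to 1286 TPM at E3.5, 1149 to 1163 TPM at E4.5 and 3371 to 3580 TPM at E5.5. At E6.5 it was 2646 to 3093 TPM, at E7.5 825 to 870 TPM, and in the cultures 3437 to 4042 TPM. Pou5f1 and Dnmt3b made up most of it. Markers of neighbouring tissues were present in the in vivo libraries. The sum of 5 trophectoderm and extraembryonic ectoderm markers was 417 to 437 TPM at E3.5 and 287 to 300 TPM at E4.5, against 10.4 to 12.3 TPM at E5.5, 14.9 to 18.2 TPM at E6.5 and 68.5 to 76.1 TPM at E7.5. The E7.5 sum was mostly Cdx2 (mean 56.7 TPM) with Gata3 (10.7 TPM). Elf5 went from 4.79 TPM at E6.5 to 0.224 TPM at E7.5, and Krt7 and Ascl2 did not rise, so the list did not rise as a whole. The sum of 10 primitive and visceral endoderm markers was 314 to 355 TPM at E4.5 and 1355 to 1368 TPM at E6.5. The in vivo and in vitro libraries were made with different kits, total RNA with 13 cycles of PCR against poly-A RNA with 8 cycles, so their levels are set side by side without a test.

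Levels are given as TPM, transcript abundances scaled by gene length and to the same total in each library, which can be compared between genes. Of the 10 members, 4 stayed at or under 2.09 TPM in every library. Cldn10, a claudin of ion-permeable epithelia, reached at most 0.521 TPM, Cldn23 1.29 TPM, Cldn9 1.91 TPM and Cldn1, which seals the epidermis, 2.09 TPM. The other 6 had more than 2 TPM in at least 3 of the 12 in vitro libraries and in at least 3 of the 15 in vivo libraries, and were tested. Cldn5, the claudin of endothelial junctions, passed through few libraries (at most 4.14 TPM), so that its passing depends on the groups in which it was high.

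Cldn6 and Cldn7, on different chromosomes, were the most abundant members after implantation. Cldn6 lies on chromosome 17 at 23679249 to 23682446 of mm10 on the plus strand, 137 bases from Cldn9, with which it faces end to end. Cldn3 and Cldn4 lie on chromosome 5, Cldn3 at 134986214 to 134987472 on the plus strand and Cldn4 at 134945119 to 134946934 on the minus strand, with 39279 bases between their 5′ ends. Cldn7 lies on chromosome 11 at 69964779 to 69967885 and Cldn12 on chromosome 5 at 5489537 to 5514958. The transcripts of Cldn6 and Cldn9 share exact runs of up to 37 bases and those of Cldn3 and Cldn4 of up to 35 bases. Cldn3 is overlapped on the opposite strand by Wbscr25, which reached at most 1.13 TPM.

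The sequences upstream of Cldn3 and Cldn4, the neighbours whose levels fell together between E4.5 and E5.5, and of Cldn6, which rose there, were read to set the loci side by side. They are RefSeq promoter sequences on GRCm38.p6 (the assembly of mm10), in the sense of the gene, ending before its annotated start. Capitals mark the E-box CACCTG and the GC box GGGCGG, each on either strand, 2 of 5 motifs searched, which were picked for marking after the matches were seen.
Cldn4, chr5:134946935-134947184, minus strand: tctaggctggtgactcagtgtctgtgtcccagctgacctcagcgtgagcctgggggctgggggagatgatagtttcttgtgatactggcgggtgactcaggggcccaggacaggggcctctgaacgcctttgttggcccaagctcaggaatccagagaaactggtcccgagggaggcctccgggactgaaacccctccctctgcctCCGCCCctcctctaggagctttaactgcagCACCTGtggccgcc
Cldn3, chr5:134985964-134986213, plus strand: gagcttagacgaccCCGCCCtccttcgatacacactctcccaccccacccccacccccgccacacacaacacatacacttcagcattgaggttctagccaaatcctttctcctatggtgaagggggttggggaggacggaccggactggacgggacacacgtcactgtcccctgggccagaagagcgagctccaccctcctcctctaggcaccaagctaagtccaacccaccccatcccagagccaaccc
Cldn6, chr17:23679115-23679248, plus strand: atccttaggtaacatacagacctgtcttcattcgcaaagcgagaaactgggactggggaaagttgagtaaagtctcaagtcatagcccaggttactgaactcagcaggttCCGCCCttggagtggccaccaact

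Promoters were found for 8 of the 10 members (12 promoters). Over the 250 bases before each RefSeq start, the promoter of Cldn4 held the E-box at position -14 and the GC box at -44, and that of Cldn3 held a GC box at -236 and no E-box. The promoter of Cldn6 held an E-box at -93 and GC boxes at -140 and -8 from its RefSeq start, which lies 116 bases inside the first exon of the table's annotation, so only the -140 site is in the sequence shown. Of the other members, the promoter of the second start of Cldn7 held E-boxes at -97 and -57 and a GC box at -6, and its first promoter neither. GC boxes without an E-box stood in promoters of Cldn1 (-42 and -14), Cldn5 (-45), Cldn10 (-163, -63 and -39 in 1 of 2) and Cldn12 (-13 and -73 in 2 of 3). These 2 promoters of Cldn12 overlap, and the positions are the same site counted from 2 starts. The E-box stood in 17.2% of 32851 RefSeq promoters of the same length and the GC box in 32.7%. Of 3 further motifs searched on both strands, AACCNGTT (1.79% of promoters) stood in that of Cldn5, GCCNNNGGC (13.7%) in the same 2 overlapping promoters of Cldn12, at shared sites, and TATAAA (12.4%) in none of the 12. A match is a run of letters and not a shown binding site.

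The plot of the in vivo libraries shows how the members were distributed before and after implantation. Cldn4, a claudin known for limiting sodium passage, was the most abundant member at E3.5, with 305, 313 and 312 TPM in replicates 1 to 3, and at E4.5, with 256, 272 and 251 TPM. It had 14.4, 12.9 and 12.02 TPM at E5.5. The libraries of the early stages all lay far above those of E5.5. From E4.5 to E5.5 Cldn4 fell by 4.21 on the log2 scale of TPM + 1 (SE 0.13, limma adjusted p = 8.24e-12), a ratio of mean TPM of 19.8. This scale, used for all differences here, understates changes of low values. At E6.5 it had 9.10, 5.83 and 5.95 TPM and at E7.5 6.39, 5.74 and 5.69 TPM, so that these stages overlapped. In bulk values, fewer cells with the transcript and less RNA per cell cannot be told apart.

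**Figure D1:**
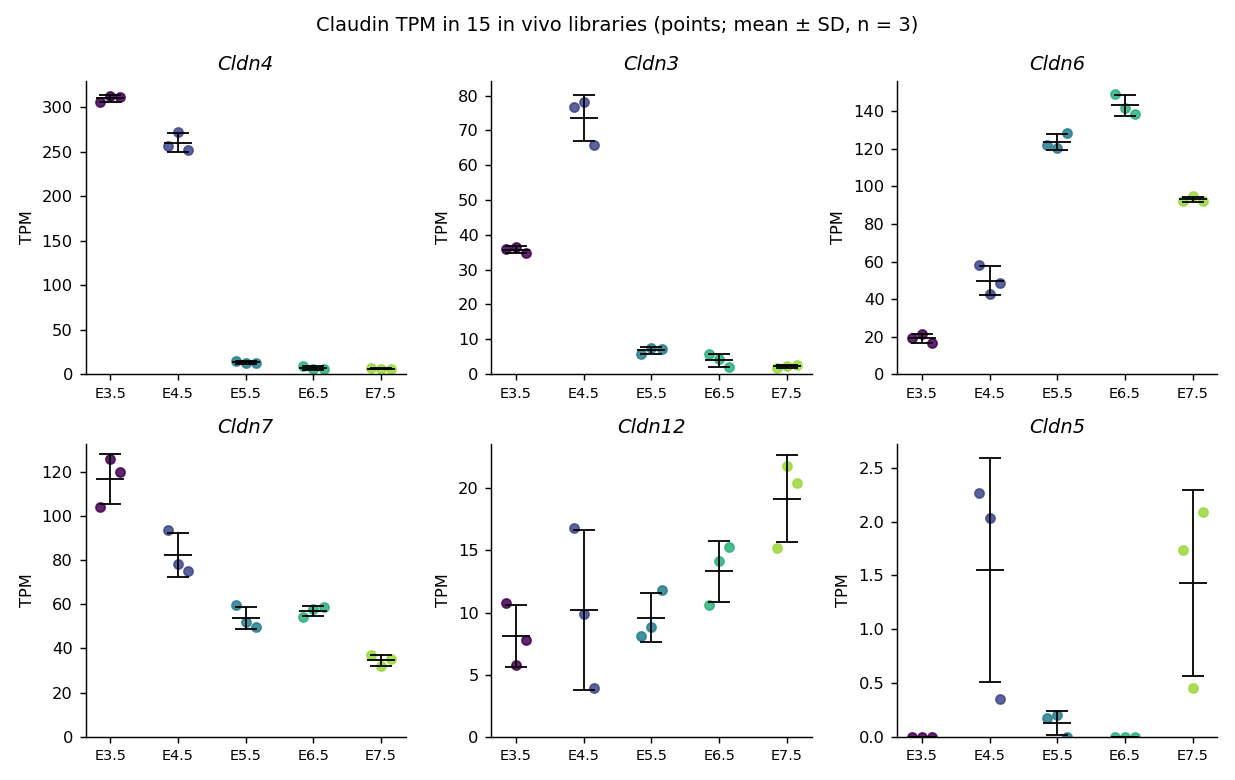
TPM (y axis) of the 6 tested claudins at 5 stages (x axis), with each of 3 libraries as a point and the mean ± SD as a bar. Cldn4 and Cldn3 drop from 260 and 73.6 TPM at E4.5 to 13.1 and 6.84 TPM at E5.5, while Cldn6 climbs from 19.2 TPM at E3.5 to 143 TPM at E6.5.

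Cldn3, a sealing claudin, had 35.9, 36.6 and 34.7 TPM at E3.5 and 76.6, 78.2 and 65.9 TPM at E4.5. It had 5.80, 7.63 and 7.08 TPM at E5.5. Its level thus rose and then fell without overlap of the libraries. The difference between E4.5 and E3.5 was 1.02 (SE 0.22, limma adjusted p = 0.00162), close to the fold threshold of 1, and without E3.5 replicate 3 or E4.5 replicate 1 or 2 it was 0.997, 0.986 and 0.972 and not called. Between E4.5 and E5.5 Cldn3 fell by 3.25 (SE 0.22, limma adjusted p = 2.59e-08), a ratio of mean TPM of 10.8. It had 5.67, 4.34 and 2.03 TPM at E6.5 and 1.62, 2.35 and 2.60 TPM at E7.5, again with overlap.

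Cldn6, a claudin known from embryonic epithelia, had 19.4, 21.5 and 16.6 TPM at E3.5, 58.1, 42.8 and 48.5 TPM at E4.5 and 122, 120 and 129 TPM at E5.5. It was thus higher in each library of a stage than in any of the stage before. It rose by 1.33 (SE 0.11, limma adjusted p = 2.92e-07) to E4.5 and by 1.30 (SE 0.11, limma adjusted p = 2.44e-07) to E5.5. At E6.5 it had 150, 142 and 138 TPM and at E7.5 92.5, 94.8 and 92.5 TPM. The later steps, 0.21 and -0.61, were under the fold threshold.

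Cldn7, a claudin that binds EpCAM at lateral membranes, had 104, 126 and 120 TPM at E3.5, 93.5, 78.0 and 74.8 TPM at E4.5 and 59.4, 52.1 and 49.6 TPM at E5.5. Its libraries did not overlap between these stages, and each step (-0.50 and -0.60 on the log2 scale) had a limma adjusted p under the threshold (0.0015 and 0.000295) but was smaller than 1. At E6.5 it had 54.1, 58.0 and 58.6 TPM, which overlapped with E5.5. At E7.5 it had 37.0, 32.1 and 35.1 TPM, below every E6.5 library, a difference of -0.70 (limma adjusted p = 0.000145) that was not called.

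Cldn12, which lacks the PDZ-binding end of other claudins, varied more between replicates than between early stages. It had 10.8, 5.79 and 7.79 TPM at E3.5 and 16.8, 9.91 and 3.89 TPM at E4.5. It had 8.10 to 11.8 TPM at E5.5, 10.6 to 15.3 TPM at E6.5, and 15.2, 21.8 and 20.4 TPM at E7.5. Neighbouring stages overlapped throughout, and its step was never called. Cldn5 was listed at 0 in all libraries of E3.5 and E6.5, with 2.27, 2.03 and 0.354 TPM at E4.5 and 1.74, 0.450 and 2.09 TPM at E7.5. At E5.5 it had 0.178, 0.200 and 0 TPM. It passed the filter only through 2 libraries of E4.5 and 1 of E7.5, so a difference of these stages from the others was built in. With that limit, it was called higher at E4.5 than at E3.5 (1.25) and at E7.5 than at E6.5 (1.21) and lower at E5.5 than at E4.5 (-1.08), at 1 to 2 TPM. The call at E5.5 was lost without E4.5 replicate 1 or 2 or E5.5 replicate 3 (-0.85, -0.91 and -0.998), and the call at E7.5 without E7.5 replicate 3 (0.995).

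Counted over the 6 tested members, 3 were called higher and 0 lower at E4.5 against E3.5, where 5.88% of all 11880 tested genes were called higher and 11.9% lower. At E5.5 against E4.5, 1 was higher and 3 lower, beside 14.9% and 9.47% of all genes. At E6.5 against E5.5, limma called 0, beside 0.715% of all genes higher and 0.480% lower, and 2 members had an unadjusted p under 0.05. Cldn4 had the lowest adjusted p there (-0.85, limma adjusted p = 0.00121) and was called without E6.5 replicate 1 (-1.03). At E7.5 against E6.5, 1 was higher and 0 lower, beside 10.6% and 1.94% of all genes. Cldn5 is the 1 member called at E7.5 and 1 of those called in each of the steps to E4.5 and E5.5, so these counts rest in part on its filter. Neighbouring comparisons share the libraries of the stage between them. The median of the 6 was 0.58, -0.84, -0.04 and -0.38 in turn, beside -0.10, 0.16, -0.06 and 0.31 over all tested genes. These medians include Cldn5, so they too rest in part on its filter. Without Cldn5 the middle values were 0.14 (Cldn12), -0.60 (Cldn7), 0.09 (Cldn7) and -0.59 (Cldn3).

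Markers of other tissues also differed between the stages, as the plot of claudins and marker sums shows. The trophectoderm and extraembryonic ectoderm sum was 287 to 300 TPM at E4.5 and 10.4 to 12.3 TPM at E5.5, with 5 of its 5 genes above a mean of 1 TPM at E4.5 and 4 at E5.5, and none at 0 in all libraries of a stage. Its part in the levels of Cldn4 and Cldn3 was not tested. The primitive and visceral endoderm sum was 643 to 667 TPM at E3.5 (8 of 10 genes above a mean of 1 TPM, Ttr and Afp at 0). It was 314 to 355 TPM at E4.5 (7 of 10, Afp at 0). It was 869 to 930 TPM at E5.5, 1355 to 1368 TPM at E6.5 and 1337 to 1372 TPM at E7.5 (10 of 10 at each). The genes of this list took different courses. Gata6, for example, had a mean of 118 TPM at E3.5, 8.64 TPM at E4.5 and 15.7 TPM at E6.5. Afp had 0 TPM at E3.5 and E4.5, and means of 81.0, 119 and 100 TPM at E5.5, E6.5 and E7.5. The part of these tissues in the level of Cldn6 was not tested. The sum of 5 mesoderm markers was 1.43 to 3.81 TPM at E3.5 and 26.1 to 36.5 TPM at E4.5. Only 1 of the 5 had a mean above 1 TPM at E4.5, where T, Mesp1 and Foxf1 were at 0 and Tbx6 had 0.0189 TPM. The remaining gene, Hand1, thus carried nearly all of the E4.5 sum, which does not show the list as a whole. The sum was 8.44 to 10.6 TPM at E5.5 (3 of 5), 86.2 to 119 TPM at E6.5 (3 of 5) and 248.7 to 253.9 TPM at E7.5 (5 of 5). Libraries of E3.5 and E4.5 were fragmented for 6 min at 85 °C and later ones for 4 min at 94 °C, a change that cannot be told apart from the step between E4.5 and E5.5. The 5 endothelial markers summed to 10.6 to 11.97 TPM at E4.5, 3.00 to 3.45 TPM at E5.5, 11.9 to 15.1 TPM at E6.5 and 50.1 to 53.5 TPM at E7.5, with Emcn at 0 throughout. Of these 5 genes, 3 had a mean above 1 TPM at E4.5, 1 at E5.5, 3 at E6.5 and 4 at E7.5. Cldn5 was at 0 in all 3 E6.5 libraries. The part of endothelial cells in its level was not tested.

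**Figure D2:**
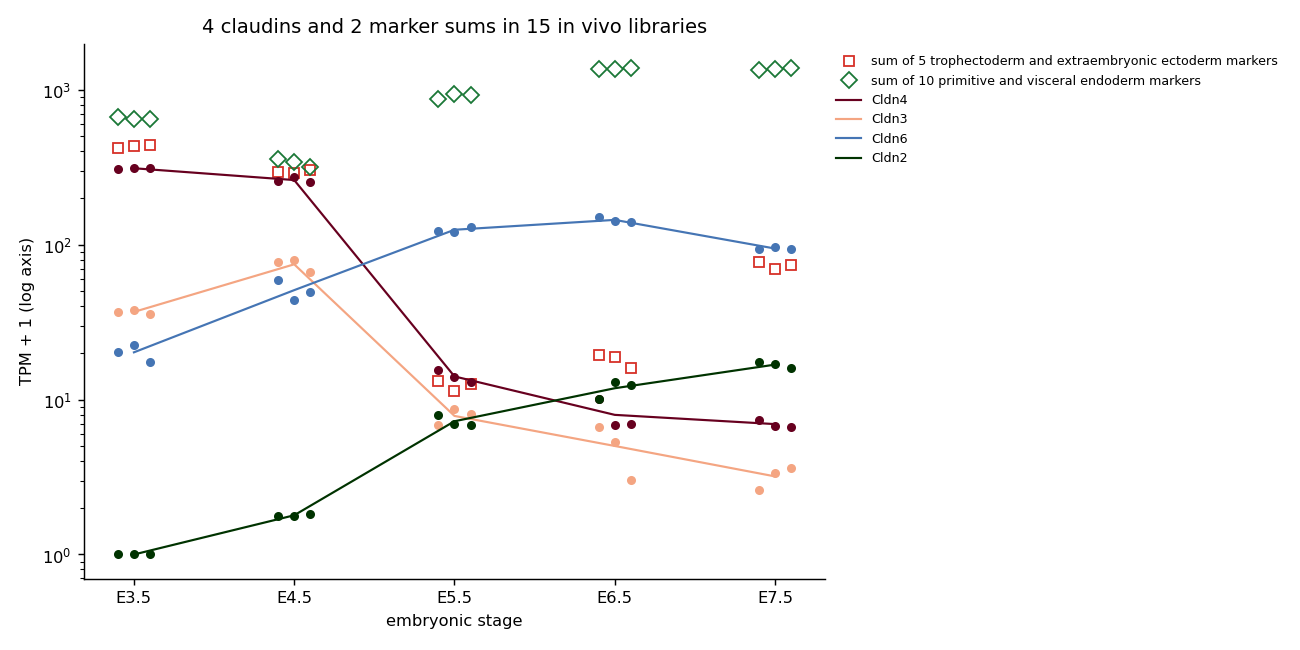
TPM + 1 on a log axis (y) of 4 claudins (lines through means, points per library) and of 2 summed marker lists (open symbols) at 5 stages (x). Cldn4, Cldn3 and the trophectoderm sum are high at E3.5 and E4.5, and Cldn2 goes from 0 TPM at E3.5 to 15.8 TPM at E7.5.

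Outside the 10 members, 21 of the 23 other claudins never exceeded 2 TPM in any library. Cldn34c1 did so in 1 library (2.17 TPM). Cldn2, which forms channels for cations and water and lies on the X chromosome outside the autosomal filter, was listed at 0 in each E3.5 library and had 0.782, 0.777 and 0.813 TPM at E4.5, 6.96, 5.94 and 5.82 TPM at E5.5, 9.15, 11.9 and 11.4 TPM at E6.5 and 16.4, 15.99 and 15.04 TPM at E7.5. Each stage lay above the stage before without overlap. In a fit that includes X-linked genes, added after the values were seen, Cldn2 rose between E4.5 and E5.5 by 2.01 (SE 0.10, limma adjusted p = 5.99e-10). It stayed at or under 0.318 TPM in vitro. Of the primitive and visceral endoderm markers, Ttr also rose, with means of 0, 0.911, 84.8, 151 and 266 TPM from E3.5 to E7.5. Its highest mean in a culture was 0.0862 TPM. Other genes of that list took other courses, and their sum was 643 to 667 TPM at E3.5. The part of endoderm cells in the level of Cldn2 was not tested.

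Taking the 10 members as a whole, their summed level was 490 ± 13.1 TPM at E3.5, 478 ± 29.5 TPM at E4.5, 209 ± 4.45 TPM at E5.5, 226 ± 4.30 TPM at E6.5 and 159 ± 2.13 TPM at E7.5 (SD, n = 3 each). Cldn4 made up 63.2% ± 0.96 of that sum at E3.5 and 6.28% ± 0.56 at E5.5, and Cldn6 3.91% ± 0.48 and 59.2% ± 1.60 (SD, n = 3 each). In vitro the sum was 466 ± 9.85 TPM in ESC-derived 3D EpiSCs, 360 ± 16.9 TPM in embryo-derived 3D EpiSCs, 715 ± 31.9 TPM in 2D EpiSCs and 243 ± 36.5 TPM in EpiLCs (SD, n = 3 each). Cldn6 had the largest share in each of these 4 cultures, from 54.3% to 65.4%, as it had from E5.5 on *in vivo*.

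**Figure D3:**
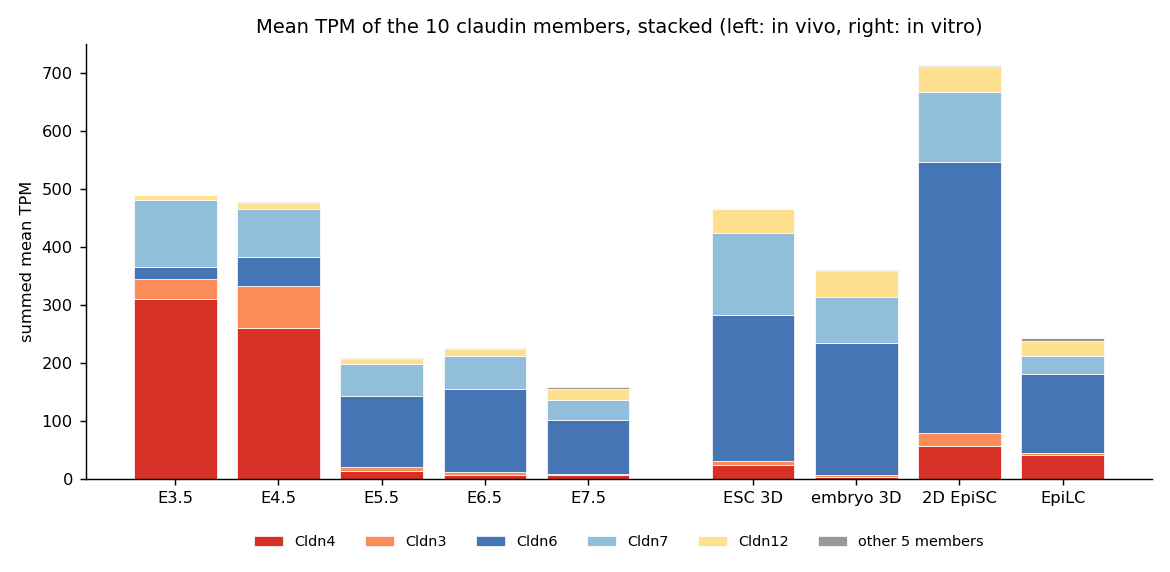
Mean TPM of the members (n = 3 libraries), stacked from 0 (y axis) for the 5 stages and the 4 cultures (x axis). Cldn4 is the largest block at E3.5 and E4.5, and Cldn6 is the largest in every later stage and culture.

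*In vitro*, Cldn6 had 252.5, 249.4 and 257.6 TPM in ESC-derived 3D EpiSCs, 243, 217 and 224 TPM in embryo-derived 3D EpiSCs, 489, 491 and 423 TPM in 2D EpiSCs and 142, 144 and 119 TPM in EpiLCs. Cldn6 was thus higher in 2D EpiSCs than in each other culture and lowest in EpiLCs, with no overlap between the cultures. It was higher in 2D EpiSCs than in EpiLCs by 1.79 (SE 0.10, limma adjusted p = 7.46e-08). Embryo-derived 3D EpiSCs lay below 2D EpiSCs by -1.03 (SE 0.10, limma adjusted p = 2.06e-05), near the fold threshold, and without embryo-derived replicate 2 or 2D replicate 1 or 2 the difference was -0.999, -0.998 and -0.996 and not called. ESC-derived 3D EpiSCs lay below them by -0.88 (SE 0.10, limma adjusted p = 7.73e-05), a difference not called because it is under 1.

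**Figure D4:**
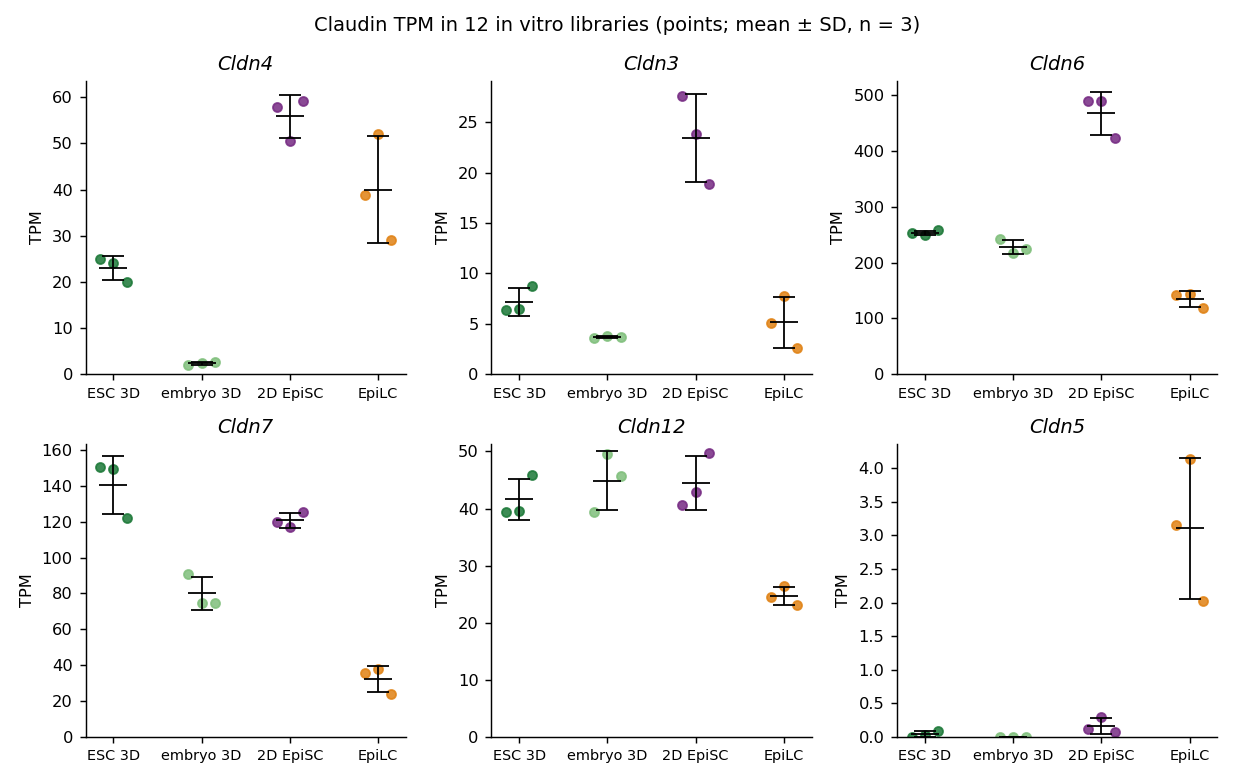
TPM (y axis) of the 6 tested claudins in the 4 cultures (x axis), with each of 3 libraries as a point and the mean ± SD as a bar. Cldn6 is highest in 2D EpiSCs (468 TPM) and Cldn4 is lowest in embryo-derived 3D EpiSCs (2.32 TPM).

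Cldn4 differed between the 3D cultures. It had 24.9, 24.0 and 20.0 TPM in ESC-derived 3D EpiSCs and 2.02, 2.39 and 2.56 TPM in embryo-derived 3D EpiSCs. The difference was 2.85 (SE 0.18, limma adjusted p = 1.44e-06), a ratio of mean TPM of 9.87. In 2D EpiSCs Cldn4 had 58.0, 50.6 and 59.2 TPM and in EpiLCs 38.8, 52.0 and 29.0 TPM. These overlapped, and their difference of 0.51 was not called. Cldn4 was lower in both 3D cultures than in 2D EpiSCs, by -1.25 (SE 0.18, limma adjusted p = 0.000292) for the ESC-derived and by -4.10 (SE 0.18, limma adjusted p = 7.76e-08) for the embryo-derived cultures. Against EpiLCs it was lower in embryo-derived 3D EpiSCs by -3.59 (limma adjusted p = 1.94e-08), and in ESC-derived 3D EpiSCs it differed by -0.74, not called.

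Cldn3 was also highest in 2D EpiSCs, at lower levels than Cldn4. It had 27.7, 23.8 and 18.9 TPM in 2D EpiSCs, 6.38, 6.42 and 8.79 TPM in ESC-derived 3D EpiSCs and 3.56, 3.78 and 3.73 TPM in embryo-derived 3D EpiSCs. It was lower than in 2D EpiSCs by -1.57 (SE 0.26, limma adjusted p = 0.00076) and -2.37 (SE 0.26, limma adjusted p = 4.59e-05). EpiLCs had 5.07, 7.73 and 2.62 TPM, below every 2D EpiSC library, and 2D EpiSCs were higher by 2.07 (SE 0.26, limma adjusted p = 3.85e-05). EpiLCs overlapped with both 3D cultures.

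Cldn7 was lowest in EpiLCs, at 35.6, 37.6 and 24.2 TPM. It had 151, 149 and 122 TPM in ESC-derived 3D EpiSCs, 90.7, 74.7 and 74.9 TPM in embryo-derived 3D EpiSCs and 120, 117 and 125 TPM in 2D EpiSCs. All 3 comparisons with EpiLCs were called higher, by 2.10 (SE 0.16), 1.30 (SE 0.16) and 1.89 (SE 0.16), with limma adjusted p of 9.51e-07, 3.32e-05 and 1.6e-06. ESC-derived 3D EpiSCs and 2D EpiSCs overlapped, with a difference of 0.21 (95% interval -0.13 to 0.56).

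Cldn12 had 39.4, 39.5 and 45.8 TPM in ESC-derived 3D EpiSCs, 39.4, 49.6 and 45.6 TPM in embryo-derived 3D EpiSCs, 40.6, 42.9 and 49.8 TPM in 2D EpiSCs and 24.5, 26.4 and 23.1 TPM in EpiLCs. The EpiLC libraries all lay below the others, by 0.73 to 0.83 on the log2 scale, which was under the fold threshold. The intervals of the differences among the other cultures ran from -0.36 to 0.27. Cldn5 had 3.15, 4.14 and 2.03 TPM in EpiLCs and at most 0.290 TPM in any other culture, a difference of -1.95, -2.00 and -1.79 on the log2 scale. It entered the test only through the 3 EpiLC libraries, so that a call of lower in the other cultures was built in and says nothing more.

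Of the members under the filter, Cldn1 had 1.10, 0.828 and 2.09 TPM in EpiLCs and at most 0.516 TPM in any other culture, and Cldn9 had 1.63, 1.502 and 0.990 TPM in EpiLCs and at most 0.0545 TPM in embryo-derived 3D EpiSCs. With no filter on low values, Cldn1 was called lower in ESC-derived and embryo-derived 3D EpiSCs than in EpiLCs (-1.02 and -1.17), and Cldn9 in the embryo-derived cultures (-1.19). Cldn23 was highest in 2D EpiSCs, at 1.29, 1.06 and 0.663 TPM. *In vivo*, Cldn9 went from 0.101 to 0.276 TPM at E3.5 to between 0.871 and 1.91 TPM at all later stages.

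Markers of other tissues were low in the cultures but not equal between them. The primitive and visceral endoderm sum was 52.1 to 68.6 TPM in 2D EpiSCs (5 of 10 genes above a mean of 1 TPM, Afp at 0), where Cldn3 and Cldn6 were highest. It was 1.91, 2.18 and 15.2 TPM in replicates 1 to 3 of ESC-derived 3D EpiSCs (3 of 10, Ttr at 0). It was 12.7 to 25.0 TPM in embryo-derived 3D EpiSCs (3 of 10, Ttr and Afp at 0) and 7.29 to 11.3 TPM in EpiLCs (1 of 10, Ttr at 0). The trophectoderm and extraembryonic ectoderm sum was 12.6 to 21.6 TPM in 2D EpiSCs (3 of 5 genes above a mean of 1 TPM). It was 2.53 to 11.6 TPM in ESC-derived 3D EpiSCs (2 of 5), 9.21 to 12.4 TPM in embryo-derived 3D EpiSCs (2 of 5) and 2.27 to 2.81 TPM in EpiLCs (1 of 5). Cdx2 and Elf5 had means of at most 0.169 and 0.265 TPM in any culture, so this sum does not show the list as a whole. The mesoderm sum was 25.0 to 39.2 TPM in 2D EpiSCs, 21.5 to 55.7 TPM in embryo-derived 3D EpiSCs (Mesp1 at 0 in both) and 12.8 to 23.9 TPM in ESC-derived 3D EpiSCs. It was 1.86 to 2.53 TPM in EpiLCs, where Cldn6, Cldn7 and Cldn12 were lowest, with 1 of 5 genes above a mean of 1 TPM in each culture. That gene was T, with means of 32.1 TPM in 2D EpiSCs (37.5, 34.8 and 24.1 TPM) and 32.7 TPM in embryo-derived 3D EpiSCs (54.6, 21.4 and 22.0 TPM). Its mean was 16.5 TPM in ESC-derived 3D EpiSCs and 1.10 TPM in EpiLCs. In the EpiSC cultures T thus carried nearly all of the sum, which does not show the list as a whole. The paper describes the T-positive cells of its spheroids as lacking expression of mesoderm genes. The endothelial sum was 7.80 to 9.12 TPM in EpiLCs, where Cldn5 was highest, and 1.17 to 4.82 TPM in the other cultures, with Emcn at 0 throughout. Of its 5 genes, 2 had a mean above 1 TPM in EpiLCs, 2 in 2D EpiSCs, 1 in ESC-derived 3D EpiSCs and 0 in embryo-derived 3D EpiSCs. The part of cells of these tissues in the claudin levels was not tested.

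**Figure D5:**
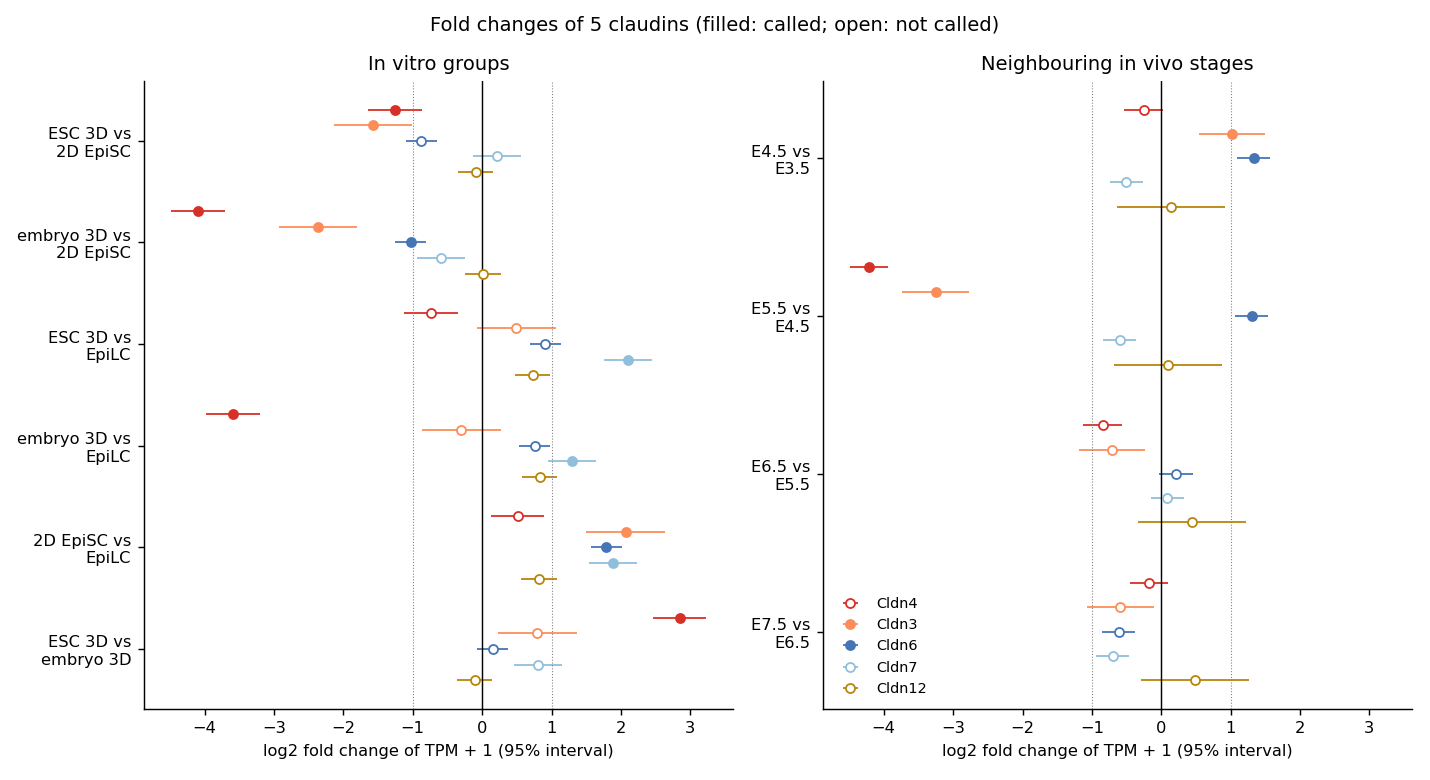
Log2 fold change of TPM + 1 (x axis, with 95% intervals) of 5 claudins in 6 pairs of cultures and 4 steps between stages (y axis), with called values filled and dotted lines at -1 and 1. Cldn4 has the largest changes, -4.10 between embryo-derived 3D EpiSCs and 2D EpiSCs and -4.21 between E5.5 and E4.5.

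Counted over the 6 tested members, 0 were higher and 2 lower for ESC-derived 3D EpiSCs against 2D EpiSCs, where 0.633% of all 11541 tested genes were called higher and 9.25% lower. For embryo-derived 3D EpiSCs against 2D EpiSCs, 0 members were higher and 3 lower, beside 1.07% and 7.75% of all genes. Against EpiLCs, ESC-derived 3D EpiSCs had 1 member higher and 1 lower, beside 5.33% and 7.11% of all genes. Embryo-derived 3D EpiSCs had 1 higher and 2 lower there, beside 10.5% and 8.28%, and 2D EpiSCs 3 higher and 1 lower, beside 15.2% and 5.14%. Between the 3D cultures, 1 member was higher in the ESC-derived cells and 0 lower, beside 1.98% of all genes in either direction. These comparisons share libraries. The 1 member lower in ESC-derived 3D EpiSCs and in 2D EpiSCs than in EpiLCs, and 1 of the 2 lower in embryo-derived 3D EpiSCs, was Cldn5. The median of the 6 members was -0.52 and -0.81 for the 3D cultures against 2D EpiSCs, beside -0.21 and -0.08 over all tested genes. Against EpiLCs it was 0.61 for ESC-derived 3D EpiSCs, 0.23 for embryo-derived 3D EpiSCs and 1.30 for 2D EpiSCs. Over all tested genes it was 0.01, 0.10 and 0.18. The medians of the members include Cldn5, whose difference from EpiLCs was built in by the filter. Without Cldn5 the middle values against EpiLCs were 0.73 (Cldn12), 0.76 (Cldn6) and 1.79 (Cldn6). Between the 3D cultures the median of the 6 members was 0.47, beside -0.12 over all tested genes.

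The proteins that claudins work with at the tight junction gave a mixed picture. Of 24 tested partners *in vitro* (scaffold proteins, angulins and junctional adhesion molecules among them), ESC-derived 3D EpiSCs differed from 2D EpiSCs in 2, both lower, Amotl2 (-1.53) and Amotl1 (-1.08), which bind junction scaffolds, beside 9.25% of all genes lower. Embryo-derived 3D EpiSCs also differed in 2, both lower, Cgn, which encodes cingulin (-1.42), and the scaffold gene Tjp3 (-1.02), beside 7.75% of all genes lower. Compared with EpiLCs, 2D EpiSCs had 10 partners higher and 0 lower, beside 15.2% and 5.14% of all genes. Each 3D culture had 4 higher and 1 lower, beside 5.33% and 7.11% of all genes for the ESC-derived and 10.5% and 8.28% for the embryo-derived cells, with the tight junction gene Marveld3 higher in all (1.71, 1.29 and 1.57). Between the 3D cultures limma called 0, beside 1.98% of all genes in each direction, and 10 had an unadjusted p under 0.05.

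*In vivo*, 26 partners were tested. At E4.5 against E3.5, 4 were called higher and 8 lower, with Amotl1 (2.87) and Arhgef2 (1.87) higher and Jam2 (-2.86) and Tjp3 (-2.27) lower, beside 5.88% and 11.9% of all genes. At E5.5 against E4.5, 5 were higher and 5 lower, with the scaffold gene Mpdz (4.11), Jam3 (2.87) and Magi1 (2.21) higher and Jam2 (-2.05) lower, beside 14.9% and 9.47% of all genes. At E6.5 against E5.5 limma called 0, beside 0.715% and 0.480% of all genes, and 8 had an unadjusted p under 0.05. At E7.5 against E6.5, 4 were higher, among them Ildr2 (2.36), an angulin of the junctions where 3 cells meet, and 1 was lower, Marveld3 (-1.68), beside 10.6% and 1.94% of all genes.

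Among all genes tested *in vivo*, those with a pattern most like that of the 3 most abundant members over the 15 libraries were Arpc1b (Pearson r = 0.994), Rnf125 (0.994) and Slc7a1 (0.991) for Cldn4, Rcc2 (0.989), Kcnk1 (0.986) and Hmga1 (0.985) for Cldn6, and Sfn (0.979), Map7 (0.970) and Epcam (0.969) for Cldn7. Epcam, whose product binds Cldn7, had 379 TPM at E3.5 and 106 TPM at E7.5. These correlations are across libraries that share their stages, so they describe the course over the stages.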

How the data were processed

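Bulk RNA-seq values of 27 libraries were used. Per the methods, the authors used cutadapt 2.4 for trimming, STAR 2.7.5a for alignment to mm10 and StringTie 2.0.6 with GENCODE VM19 for quantification. The deposited values are TPM as the authors made them; they sum to 1000000 in every library and keep no read counts. The methods give a depth of 50 M fragments per library, the depth reached by each is unknown, and no counting interval is given.

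Autosomal protein-coding genes with TPM above 2 in at least 3 libraries were compared as log2(TPM + 1), 11541 in vitro and 11880 in vivo, with limma 3.58.1 in R 4.3.3, in one fit of the 4 cultures and one of the 5 stages. The study used a count model, which needs counts. A call needed a log2 fold change beyond 1 in size and a p under 0.05 after Benjamini-Hochberg adjustment across the genes of a comparison. On simulated data, calls recovered 196 of 200 genes shifted by 2 on the log2 scale for ESC-derived 3D EpiSCs against 2D EpiSCs (98%, 11541 genes). The simulated noise was independent and normal with each gene's own spread, and the shift lay well beyond the threshold. This recovery checks the code and says nothing about calls near a fold change of 1. The labels do not say whether replicates came from separate cultures, so p-values measure the spread between these libraries. In 3 pairs of in vitro replicates the median absolute log2 difference was under 0.1, and averaging them was an alternative. The members and lists were chosen with earlier results of these data known. Named genes were the 10 members, up to 4 called partners per comparison with the largest change, and for the 3 members most abundant in vivo the 3 genes with the highest Pearson r. Of other claudins, those above 2 TPM in any library were named after their values were seen. Alternatives were a pseudocount of 0.1, no filter, median-of-ratios scaling, other samples in the fit, a replicate block, an intensity trend, averaged near-identical replicates and leaving out each replicate. Figures and promoter searches used Python 3.11.15, pandas 2.3.3 and matplotlib 3.10.9.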

Additional observations from a re-analysis of the deposited data

How the results depend on the processing

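The counts of claudins called stayed within 1.5 times of the reported ones in 7 of 10 comparisons under every setting run. In embryo-derived 3D EpiSCs against EpiLCs the count went from 3 to 5 with no filter, beside 2444 of all 17323 genes called. The count then includes Cldn1 and Cldn9. At E6.5 against E5.5 it ranged from 0 to 1 when a replicate was left out, with Cldn4 called without E6.5 replicate 1. At E7.5 against E6.5 it ranged from 0 to 1 when a replicate was left out and was 2 with median-of-ratios scaling, which adds Cldn7 (-1.03). Cldn6 in embryo-derived 3D EpiSCs against 2D EpiSCs was not called with that scaling (-0.94) or with near-identical replicates averaged (-0.97), and Cldn5 there was called with a pseudocount of 0.1 (-1.29). The cause of these changes was not tested.

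Signs turned in small differences that were never called. Cldn12 became 0.13 in ESC-derived 3D EpiSCs against 2D EpiSCs, 0.022 between the 3D cultures and -0.045 at E5.5 against E4.5 with median-of-ratios scaling, and -0.073 in embryo-derived 3D EpiSCs against 2D EpiSCs with near-identical replicates averaged. When a replicate was left out, Cldn12 ranged from -0.061 to 0.10 in embryo-derived 3D EpiSCs against 2D EpiSCs, from -0.28 to 0.65 at E4.5 against E3.5 and from -0.41 to 0.52 at E5.5 against E4.5. Cldn3 ranged from -0.63 to 0.0010 in embryo-derived 3D EpiSCs against EpiLCs, turning without EpiLC replicate 2, and Cldn4 from -0.27 to 0.0084 at E7.5 against E6.5, turning without E6.5 replicate 1.

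Median-of-ratios scaling moved the share of all calls that were higher from 49.9% to 64.4% between the 3D cultures, from 74.8% to 63.0% in 2D EpiSCs against EpiLCs and from 84.6% to 65.8% at E7.5 against E6.5. For ESC-derived 3D EpiSCs against 2D EpiSCs it went from 6.40% (73 higher, 1068 lower) to 15.5% (133 higher, 727 lower). Libraries with the same replicate number did not deviate together (mean r of -0.03 in vitro and -0.02 in vivo), so the numbers were not taken as pairs. With the replicate block, the counts of claudins called were the same in all 10 comparisons, for example 4 at E5.5 against E4.5. TPM keeps no read counts, so how far counting noise limits the members under 2 TPM is unknown.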
